A study of Mus musculus with 6 samples.

Results

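The genes described here encode the granule proteins and secreted ribonucleases of the eosinophil, a granulocyte known for its part in parasite defence and allergy. All 7 genes, *Prg2*, *Prg3*, *Epx*, *Ear1*, *Ear2*, *Ear6* and *Ear10*, were taken by gene name from a deposited expression table of 54532 mouse genes. RNA was sequenced from GFP+ leukemia cells sorted from the bone marrow of mice with acute myeloid leukemia (AML) driven by RUNX1-ETO9a (RE9a), a truncated form of the t(8;21) fusion protein. The *WT Phf6,RE9a* cells (WT, replicates 1, 2 and 3) carried the floxed *Phf6* allele without Cre, and the *VC Phf6,RE9a* cells (VC, replicates 11, 12 and 13) carried the same allele with *Vav1-Cre*, which deletes it in blood cells. Per the study's methods, the donors were male, Lin- fetal liver cells were transduced with an RE9a-GFP retrovirus, and the transduced cells were passed from mouse to mouse in male recipients. Both groups therefore carried RE9a and GFP, and GFP marks transduced cells and their progeny of any lineage. The passage and the age at which these cells were taken are not given in the sources used here. Whether the replicates of a group were separate leukemias is not stated by the labels, so p-values measure the spread between these libraries only.

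Eosinophils store cationic proteins in large granules and release them onto parasites or tissue. The core of the granule is major basic protein (*Prg2*), beside which lie eosinophil peroxidase (*Epx*) and ribonucleases of the RNase A family, called eosinophil-associated RNases in the mouse (the *Ear* genes). *Prg3* encodes a homolog of major basic protein. These granule genes are switched on in eosinophil progenitors under C/EBP, GATA and PU.1 factors, and interleukin-5 (IL-5) drives the later expansion of the lineage.

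On GRCm38, *Prg2* (chr2:84980461-84983632, plus strand) and *Prg3* (chr2:84988215-84993886, plus strand) are neighbours, and *Epx* lies at chr11:87864000-87875536 on the minus strand. The *Ear* genes are on chromosome 14, with *Ear1* at chr14:43818765-43875517 and *Ear10* at chr14:43922720-43923559 on the minus strand, and *Ear2* at chr14:44102654-44103534 and *Ear6* at chr14:51853699-51854643 on the plus strand. The *Ear* genes are close copies of each other, *Ear6* the least. Over the aligned bases of their transcripts, identity was 97.1% between *Ear1* and *Ear2*, 93.6% between *Ear1* and *Ear10* and 94.7% between *Ear2* and *Ear10*. *Ear6* was 89.2% identical to *Ear1* and to *Ear2* and 87.9% to *Ear10*. Bases left unaligned do not enter these values, 41 to 45 in the pairs with *Ear10* and 4 to 8 in the other pairs. The 60 coding bases from position 203 to 262 of the coding sequence (GENCODE M21, GRCm38) are shown because no base in this window separates *Ear1*, *Ear2* and *Ear10* from each other. Capitals mark the bases of *Ear6* that differ from *Ear1*.
Ear1: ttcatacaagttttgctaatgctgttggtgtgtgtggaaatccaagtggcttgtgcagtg
Ear2: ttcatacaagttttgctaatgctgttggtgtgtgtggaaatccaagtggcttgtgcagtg
Ear10: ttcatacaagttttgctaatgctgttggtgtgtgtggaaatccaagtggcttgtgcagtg
Ear6: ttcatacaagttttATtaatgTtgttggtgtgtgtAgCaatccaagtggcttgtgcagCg

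Of the 50-base windows in the transcripts, 57.4% of those of *Ear1*, 41.5% of *Ear2*, 39.9% of *Ear10* and 1.4% of *Ear6* also occurred in a transcript of another gene. At 150 bases, the length of 1 read, the shares were 5.7%, 6.3%, 6.8% and 0%. No window of either length in *Prg2*, *Prg3* or *Epx* was shared. How the authors' counting treated reads that match more than 1 gene is not given in the sources used here, so the counts of *Ear1*, *Ear2* and *Ear10* are uncertain as a split between copies. Their sum is uncertain as well, since the windows of *Ear1* shared at 150 bases were shared with the pseudogene *Ear-ps9*, which is not in the sum. *Ear1* and *Ear2* also overlap noncoding genes on the opposite strand (*AC154806.1* and *Gm49101*), which had at most 1 count in any library. On the same strand *Ear1* overlaps the pseudogenes *Ear-ps9*, with 17 shared exon bases, and *Ear-ps12*. *Ear-ps9* had at most 1 count in any library and *Ear-ps12* had 0.

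Total counts per library ran from 15675358 to 16817994, and 14169 genes had enough counts to be tested. Both groups differed widely, with 6260 of these (44.2%) past an adjusted p of 0.05 in edgeR's quasi-likelihood test. *Phf6* itself was lower in VC cells, at 1044, 827 and 1142 counts against 388, 314 and 331, for a log2 fold change of -1.66 (adjusted p = 9.3e-05) and a standard error (SE) of 0.13. Pearson's r of log2 CPM (counts scaled to a common library size) between libraries was 0.976 to 0.988 within groups and 0.872 to 0.909 across them.

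Eosinophil granule genes were low in WT cells and higher in VC cells. Of the 7 genes, 6 passed the count filter, and 5 of these were higher in VC cells (*Prg2*, *Prg3*, *Epx*, *Ear1* and *Ear6*) while 0 were lower. For comparison, 21.5% of all tested genes were higher and 22.7% lower. *Prg3*, *Epx*, *Ear1* and *Ear6* passed the filter only through their counts in the VC libraries, so a higher value there was built into their being tested. Among all 1480 tested genes that fell under the count minimum in a WT library, 42.1% were higher.

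Major basic protein, *Prg2*, had the highest mean of the 7 in both groups, although *Ear2* was above it in WT replicate 2 (30 against 16 counts). It had 46, 16 and 104 counts in WT cells and 379, 927 and 232 counts in VC cells. Every VC library lay above every WT library, which held for 28.9% of all tested genes, and replicates within each group still differed several-fold. The mean rose from 3.46 ± 2.64 to 30.1 ± 21.2 CPM (SD, n = 3 each), a log2 fold change of 3.11 (SE 0.68, edgeR adjusted p = 0.00794).

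*Prg3* had 0, 0 and 3 counts in WT cells and 65, 78 and 38 counts in VC cells. It was thus near the detection limit in the first group and read in every library of the second. Summed over libraries and scaled for depth, its count was 55.3 times higher, with an exact 95% interval of 18.6 to 271 that covers counting error only. The fitted log2 fold change of 5.63 (SE 0.76, edgeR adjusted p = 0.00095) depends on the prior count added to the zeros.

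*Epx*, the peroxidase that uses hydrogen peroxide to make hypobromous acid, had 4, 2 and 19 counts in WT cells against 91, 246 and 70 in VC cells. Its mean went from 0.515 ± 0.553 to 7.95 ± 5.56 CPM (SD, n = 3 each), with a log2 fold change of 3.90 (SE 0.77, edgeR adjusted p = 0.0052). The lowest VC value, 4.16 CPM, was above the highest WT value, 1.15 CPM, an order that 28.9% of all tested genes shared. Of the related heme peroxidases, myeloperoxidase (*Mpo*) of neutrophil granules was also higher (log2 fold change 1.88, adjusted p = 0.018), and *Lpo* had too few counts to be tested.

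**Figure D1:**
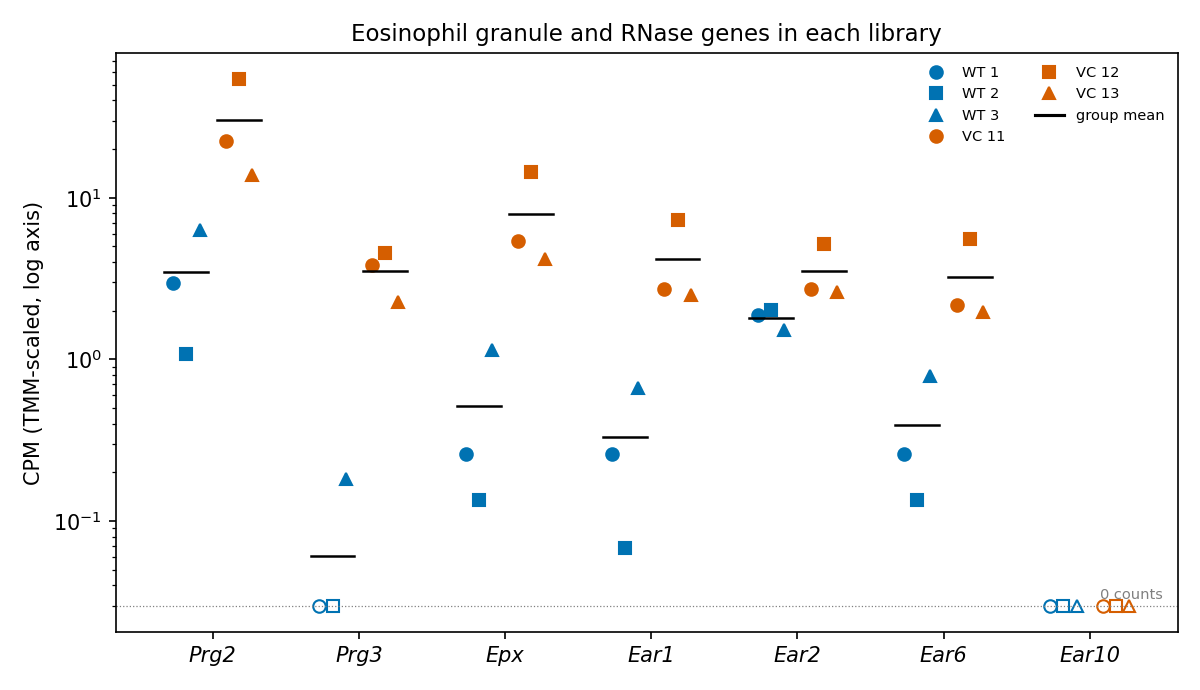
CPM of each gene (log axis) in every library, with WT in blue and VC in orange, a different symbol for each replicate and a black bar for each group mean; open symbols on the dotted line are libraries with 0 counts. The orange symbols lie above the blue ones for the 6 detected genes, closest for *Ear2*, and *Ear10* was at 0 in all 6 libraries.

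Of the RNases, *Ear1* had 4, 1 and 11 counts in WT cells and 46, 125 and 42 counts in VC cells. *Ear6* had 4, 2 and 13 counts against 37, 95 and 33. For both genes every VC library lay above every WT library, as for 28.9% of all tested genes. Both passed the count filter only through their VC counts. The log2 fold changes were 3.59 for *Ear1* (SE 0.71, edgeR adjusted p = 0.00531) and 2.98 for *Ear6* (SE 0.67, edgeR adjusted p = 0.0090).

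*Ear2* gave a different picture. Its counts were 29, 30 and 25 in WT cells, where the highest library was 1.35 times the lowest in CPM, and 46, 89 and 44 in VC cells. The groups did not overlap, which held with VC above WT for 28.9% of all tested genes. The log2 fold change of 0.95 (SE 0.35) did not pass the threshold (edgeR adjusted p = 0.0606). Without VC replicate 12 the value was 0.56 (adjusted p = 0.226). *Ear10* had 0 counts in all 6 libraries, which allows up to 3 counts or 0.178 to 0.191 CPM of the library totals. The *Ear* counts summed to 37, 33 and 49 in WT cells and to 129, 309 and 119 in VC cells.

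**Figure D2:**
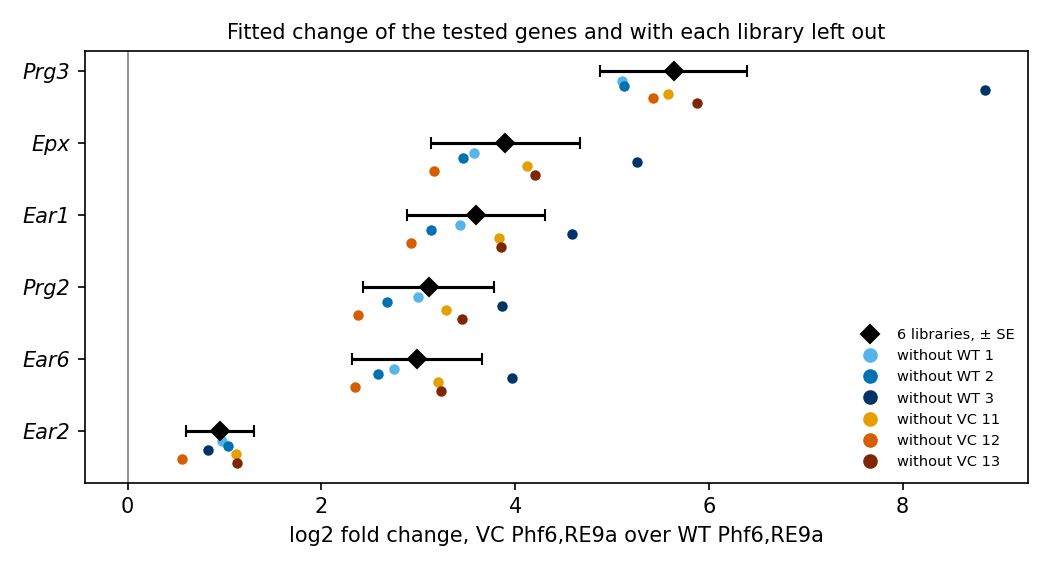
Log2 fold change of VC over WT cells (x axis) for the 6 tested genes; black diamonds with bars give the edgeR value ± its standard error, and coloured points the value with 1 library left out. All values were above 0, from 0.56 for *Ear2* without VC replicate 12 to 8.85 for *Prg3* without WT replicate 3.

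The size of these changes depended on single libraries. Leaving out VC replicate 12, the highest library, gave log2 fold changes of 2.38 for *Prg2*, 3.17 for *Epx*, 2.92 for *Ear1* and 2.35 for *Ear6*. Leaving out WT replicate 3 gave 3.86, 5.26, 4.58 and 3.96, and 8.85 for *Prg3*, whose remaining WT libraries were at 0. The 5 genes passed the threshold with any 1 library left out, with a highest adjusted p of 0.036 for *Ear6* without WT replicate 1.

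The order of the libraries was similar for most of the genes. In VC cells all 6 detected genes were highest in replicate 12, then 11, then 13. Replicates 11 and 13 were close for some, with 46 and 42 counts for *Ear1*, 46 and 44 for *Ear2* and 37 and 33 for *Ear6*. In WT cells *Prg2*, *Epx*, *Ear1* and *Ear6* were highest in replicate 3 and lowest in replicate 2. *Epx* and *Ear6* each had only 4 counts in replicate 1 and 2 in replicate 2. The 3 counts of *Prg3* were all in replicate 3. *Ear2* had 30, 29 and 25 counts in replicates 2, 1 and 3, too close to rank. These orders were not tested. Within VC cells the highest library exceeded the lowest 3.92-fold for *Prg2*, 3.45-fold for *Epx*, 2.01-fold for *Prg3* and 1.98-fold for *Ear2*. Within WT cells the spread was 5.80-fold for *Prg2*, 8.47-fold for *Epx* and 1.35-fold for *Ear2*. The summed level of all 7 genes was 5.65, 3.46 and 10.6 CPM in WT cells and 39.2, 90.9 and 27.3 CPM in VC cells. In these bulk libraries, more cells of a type and more RNA per cell cannot be told apart.

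Counted against *Prg2* in the same library, *Ear6* kept a narrow range, from 8.70 to 12.5 reads per 100 *Prg2* reads in WT cells and from 9.76 to 14.2 in VC cells, although *Prg2* itself changed. *Ear1* gave 6.25 to 10.6 and then 12.1 to 18.1, and *Epx* gave 8.70 to 18.3 and then 24.0 to 30.2. The ratio of *Ear2* went the other way, as *Prg2* rose more than *Ear2*. *Ear2* stood at 63.0, 187.5 and 24.0 reads per 100 *Prg2* reads in WT cells and at 12.1, 9.60 and 18.97 in VC cells. Its own level did not fall, at 1.51 to 2.04 CPM in WT cells and 2.61 to 5.19 CPM in VC cells. *Ear2* made up 33.3%, 58.8% and 14.3% of the summed level in WT cells and 5.71% to 9.59% in VC cells, where *Prg2* took 50.5% to 59.4%. These shares rest on few reads in WT cells and were not tested.

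**Figure D3:**
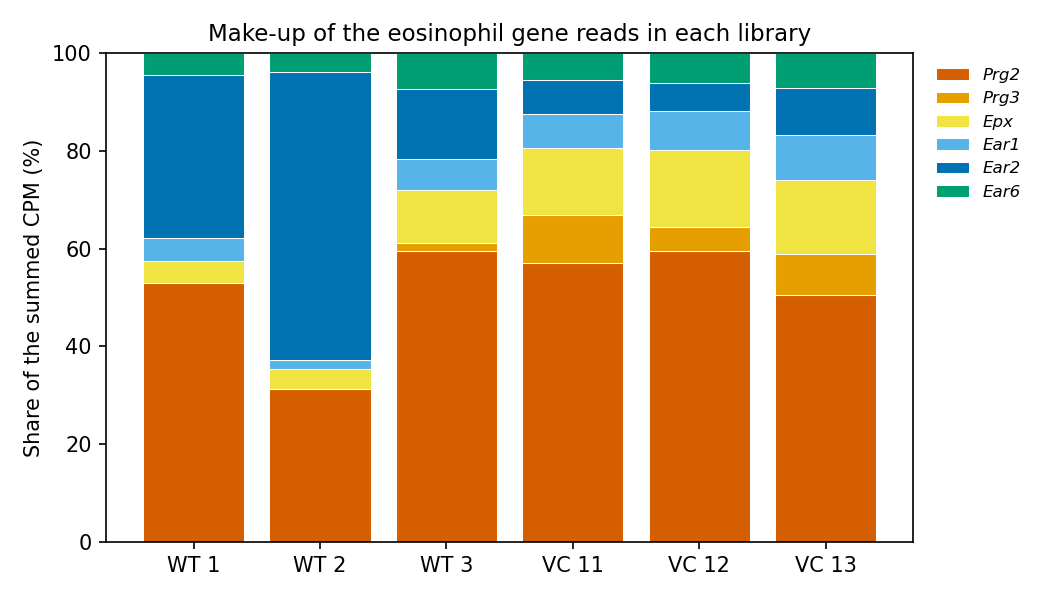
Share of each gene in the summed CPM of the 6 detected genes (y axis, percent) in each library (x axis), as stacked bars that add to 100%. *Ear2* took 58.8% in WT replicate 2 and less than 10% in each VC library, and *Prg3* appeared in WT replicate 3 and in the 3 VC libraries.

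Between genes, levels were compared per length, as the deposited FPKM (fragments scaled to transcript length and depth). In WT cells the order was *Prg2* (4.09 ± 3.11 FPKM), *Ear2* (2.50 ± 0.377), *Ear1* (0.450 ± 0.413), *Ear6* (0.414 ± 0.361), *Epx* (0.187 ± 0.200), *Prg3* (0.0631 ± 0.109) and *Ear10* (0). The lowest *Ear2* library was above the highest *Ear1* library, and the other neighbours overlapped. In VC cells the order was *Prg2* (35.5 ± 25.2 FPKM), *Ear1* (5.64 ± 3.69), *Ear2* (4.82 ± 2.03), *Prg3* (3.69 ± 1.24), *Ear6* (3.38 ± 2.11), *Epx* (2.88 ± 2.02) and *Ear10* (0). There *Prg2* lay apart from the rest and the 5 genes below it overlapped with their neighbours. Among all genes of the table, *Prg2* ranked 8502 by mean FPKM in WT cells and 1467 in VC cells.

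The pattern of each gene over the 6 libraries was set beside that of every other tested gene by Pearson's r of log2 CPM, as a description with no test, since the points share the difference between the groups. Among the closest genes were *Minpp1* for *Prg2* (r = 0.995) and *Pmm1* and *Tmem65* for *Prg3* (r = 0.9996 and 0.999). *Kifc2* was among the closest for *Epx* (r = 0.998), *Ear1* (r = 0.999) and *Ear6* (r = 0.997), beside *Gm5103* for *Epx* (r = 0.998) and *Ear6* (r = 0.996) and *Kat2a* for *Ear1* (r = 0.998). For *Ear2* they were *Inpp5j* (r = 0.988) and *Ppp1r37* (r = 0.982). An r takes no account of the size of a change. Log2 fold changes were 0.33 for *Kat2a*, 0.35 for *Minpp1*, 0.60 for *Kifc2*, 0.75 for *Pmm1*, 1.57 for *Gm5103* and 2.98 for *Tmem65*. They were 1.43 for *Inpp5j* and 0.26 for *Ppp1r37*, which did not pass the threshold (edgeR adjusted p = 0.081). An r of 0.95 or more was reached by 17 genes for *Ear2*, against 340 for *Prg2* and 1060 for *Prg3*. Among the detected members, r was 0.942 to 0.998 between pairs without *Ear2* and 0.776 to 0.797 between *Ear2* and the others.

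Of 16 further members of the RNase A family in the table, 3 could be tested, and all 3 were lower in VC cells. Among all tested genes 22.7% were lower. *Rnase6*, an antimicrobial RNase of monocytes and macrophages, fell from 2317, 3150 and 2625 counts to 647, 596 and 872 (log2 fold change -2.07, adjusted p = 0.00018). *Rnase4* (log2 fold change -2.95, adjusted p = 0.00044) and angiogenin, *Ang* (log2 fold change -1.85, adjusted p = 0.015), fell too, although *Ang* passed the count filter only through its WT counts. *Ear14*, *Rnase2b* and 5 others had 0 counts in all libraries, and *Rnase2a* had 3 counts in 1 library. *Rnase1*, too low to be tested, had 1, 0 and 3 counts in WT cells and 7, 4 and 8 in VC cells.

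Of 10 surface and lipid-pathway genes of eosinophils in the table, 9 were tested, with 2 higher, 3 lower and 4 not past the threshold. Among all tested genes 21.5% were higher and 22.7% lower, which leaves no result about these few genes as a group. Their median log2 fold change was 0.45 against 0.01 over all tested genes. *Alox15*, a lipoxygenase gene, had 5, 14 and 22 counts in WT cells and 178, 419 and 416 in VC cells (log2 fold change 4.50, SE 0.52, adjusted p = 0.00047). It passed the count filter only through its VC counts, so a higher value there was built into its being tested. *Siglecf*, a sialic acid-binding receptor used to sort mouse eosinophils, had 571, 621 and 897 counts against 1383, 1263 and 1659 (log2 fold change 0.93, SE 0.17, adjusted p = 0.0034). For both, every VC library lay above every WT library, as for 28.9% of all tested genes. In VC cells *Alox15* stood at nearly the same level in replicates 12 and 13 (24.4 and 24.7 CPM), and *Siglecf* was highest in replicate 13.

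The other surface genes were lower or did not pass the threshold. The IL-33 receptor *Il1rl1*, which mast cells also express, fell from 4512 ± 1116 to 2282 ± 133 CPM (SD, n = 3 each, log2 fold change -0.98, adjusted p = 0.0047). The histamine receptor *Hrh4* (log2 fold change -1.32, adjusted p = 0.00086) and *Fut7*, which makes selectin ligands (log2 fold change -1.59, adjusted p = 0.0037), were lower too. Among the genes most tied to eosinophils, the eotaxin receptor *Ccr3* had 16, 9 and 6 counts against 5, 26 and 13 (log2 fold change 0.36, adjusted p = 0.67), with overlapping groups. The IL-5 receptor chain *Il5ra* had 179, 147 and 192 counts against 198, 327 and 289 (log2 fold change 0.53, adjusted p = 0.074). Its groups were only just apart in CPM, at 11.69 in VC replicate 11 against 11.62 in WT replicates 1 and 3. They overlapped in FPKM, at 3.23 in VC replicate 11 and 3.25 in WT replicate 1. Among all tested genes, 28.9% had every VC library above every WT library in CPM.

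The cytokines that support eosinophils were at or near 0, with *Il5*, *Il3* and *Csf2* too low to be tested. Of their 5 receptor genes, 3 were lower in VC cells, beside 22.7% of all tested genes, which leaves no result about these few genes as a group. The shared signalling chain *Csf2rb* fell from 2070 ± 334 to 1153 ± 68.7 CPM (log2 fold change -0.84, adjusted p = 0.0026), the IL-3-specific chain *Csf2rb2* from 1903 ± 366 to 638.8 ± 19.6 CPM (log2 fold change -1.57, adjusted p = 0.00024), and *Il3ra* from 23.8 ± 18.7 to 1.81 ± 0.280 CPM (log2 fold change -3.72, adjusted p = 0.0018; SD, n = 3 each). The GM-CSF-binding chain *Csf2ra* was higher (log2 fold change 0.87, adjusted p = 0.0026).

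Of 14 transcription factors and regulators linked to the eosinophil lineage, 5 were higher, 4 lower and 5 not past the threshold, with a median log2 fold change of 0.16. With 21.5% of all tested genes higher and 22.7% lower, these counts are no result about the regulators as a group. Without VC replicate 11, 3 were higher. *Cebpe*, needed for the late granules of neutrophils and eosinophils, had 9, 4 and 21 counts in WT cells and 160, 128 and 66 in VC cells (log2 fold change 3.26, SE 0.55, adjusted p = 0.0026), and like *Alox15* it passed the count filter only through its VC counts. *Cebpa* (log2 fold change 1.94, adjusted p = 0.0103), *Trib1* (2.25, adjusted p = 0.0175), *Irf8* (1.77, adjusted p = 0.0047) and *Zfpm1* (0.52, adjusted p = 0.0149) were the other regulators that rose. *Gata1*, which is needed to form eosinophils, stood at 174.8 ± 19.8 against 189.7 ± 6.78 CPM (SD, n = 3 each, log2 fold change 0.12, adjusted p = 0.38). *Gata2* (log2 fold change -0.71, adjusted p = 0.0087), *Xbp1* (-0.44, adjusted p = 0.0143), *Id2* (-2.58, adjusted p = 0.00016) and *Gfi1* (-3.48, adjusted p = 0.00019) fell. *Spi1*, which encodes PU.1, and *Runx1* gave log2 fold changes of 0.20 (adjusted p = 0.21) and -0.27 (adjusted p = 0.055).

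**Figure D4:**
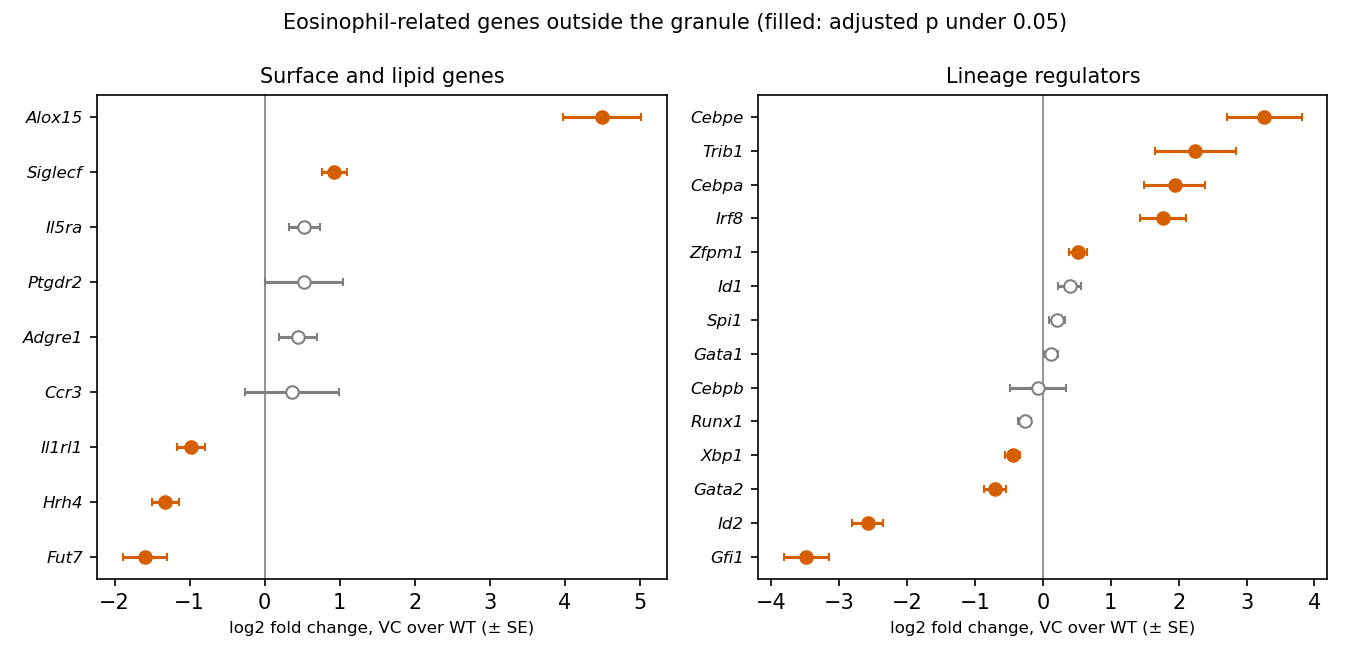
Log2 fold change ± standard error (x axis) of VC over WT cells for the tested surface and lipid genes (left) and lineage regulators (right); filled orange points passed an adjusted p of 0.05 and open grey points did not. Points lie on both sides of 0 in both panels, from -1.59 for *Fut7* to 4.50 for *Alox15* and from -3.48 for *Gfi1* to 3.26 for *Cebpe*.

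Letters bound by these factors were searched in the 250 bases before the RefSeq start of each gene (GRCm38.p6), on both strands, for 6 of the 7 genes (*Prg2* had no entry). The RefSeq starts of *Ear1* and *Ear6* lie inside the genes as deposited, downstream of their 5′ ends, and that of *Ear10* lies upstream of its 5′ end, so the windows of *Ear1* and *Ear6* run within or into the deposited gene. The searches were TTNNGNAA for C/EBP, found in 36.85% of 32851 promoters, AGATAA for GATA factors with T also allowed as the first and G as the last base (26.54%), GAGGAA for PU.1 (23.25%) and TGTGGT for RUNX factors (14.05%). The *Prg3* sequence (chr2:84987965-84988214, plus strand) is shown because it held letters of 3 of the 4 searches, in capitals from left to right a GATA, a C/EBP and a RUNX match.
Prg3: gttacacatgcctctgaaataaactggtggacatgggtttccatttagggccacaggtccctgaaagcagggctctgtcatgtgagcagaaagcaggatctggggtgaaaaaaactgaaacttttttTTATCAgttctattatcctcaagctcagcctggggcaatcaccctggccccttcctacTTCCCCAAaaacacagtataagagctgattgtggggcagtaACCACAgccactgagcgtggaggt

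All 4 *Ear* genes held 1 C/EBP match, at a similar place and in the same surroundings, and no match of the other searches, while *Epx* held none of the 4. The matches began 92, 90, 112 and 94 bases before the start of *Ear1*, *Ear2*, *Ear6* and *Ear10*. They are shown in capitals with 11 bases on each side, because all 4 genes hold them in similar surroundings. The positions are chr14:43819713-43819742 (minus strand), chr14:44102553-44102582 (plus strand), chr14:51853645-51853674 (plus strand) and chr14:43923672-43923701 (minus strand).
Ear1: cagaaggctggTTGCACAAgcagaaaatgt
Ear2: cagaaggctggTTGCACAAgcagaaaatgt
Ear6: cagaaggctggTTACACAAgcaggcaatgt
Ear10: cagaaggctggTTGCACAAgtaggcaatgt

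Over the 250 bases, the *Ear2* sequence was 99.2% identical to that of *Ear1*, *Ear10* 93.9% and *Ear6* 92.6% where aligned. The fitted log2 fold changes were 3.59 for *Ear1* and 0.95 for *Ear2*, which did not pass the threshold, and *Ear10* had no count. These values are uncertain as a split between the copies, since reads can match more than 1 of them. The part of the upstream bases in these levels was not tested. A match is a description of letters and not of binding, which was not measured.

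Markers of other cell types moved between the groups as well. For comparison with the counts below, 21.5% of all tested genes were higher and 22.7% lower. All 10 late neutrophil markers were higher in VC cells (median log2 fold change 3.06), with summed levels of 165.0 to 507.3 CPM in WT and 1015 to 3870 CPM in VC cells. The same held for all 6 promyelocyte granule markers (4 to 6 of them with a library left out and 2 at an adjusted p of 0.01, 37.8 to 119.9 against 175.7 to 377.7 CPM), all 8 erythroid markers (1465 to 2241 against 5184 to 6157 CPM) and all 5 tested of 6 B cell markers (2.60 to 7.87 against 25.3 to 70.7 CPM). *Prss57* of the promyelocyte list and B cell markers such as *Pax5*, *Cd79a* and *Cd79b* passed the count filter only through their VC counts. Of 11 mast cell and basophil markers, 10 were lower and *Ms4a2* did not pass the threshold, and their sum went from 18132 to 29552 CPM down to 4098 to 4460 CPM. Of 11 monocyte and macrophage markers, 2 were higher and 2 lower, with 1 to 2 in each direction when a library was left out. At an adjusted p of 0.01, 1 was higher and 1 lower. With at least 10 counts required in every library, 2 were higher and 0 lower. No T cell marker had enough counts to be tested (summed levels of 0.847 to 0.909 against 1.25 to 3.54 CPM). None of these markers was at 0 in all libraries.

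Within groups these sums did not all run with the eosinophil genes. Late neutrophil and promyelocyte markers had the same order as the eosinophil genes in WT cells, highest in replicate 3 and lowest in replicate 2. In VC cells they were highest in replicate 11, at 3870 CPM for late neutrophil markers against 2487 in replicate 12, where the eosinophil genes were highest at 90.9 CPM against 39.2 in replicate 11. The erythroid and B cell sums were highest in replicate 12 of the VC libraries and lowest in replicate 13, as the eosinophil genes were, with 70.7 CPM against 69.8 CPM in replicate 11 for B cell markers. In WT cells their orders differed from that of the eosinophil genes. The erythroid sum was highest in replicate 1 (2241 CPM against 2086.5 in replicate 3). The B cell sum was lowest in replicate 1 (2.60 CPM against 2.71 in replicate 2). The part of these other cell types in the change of the eosinophil genes was not tested.

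**Figure D5:**
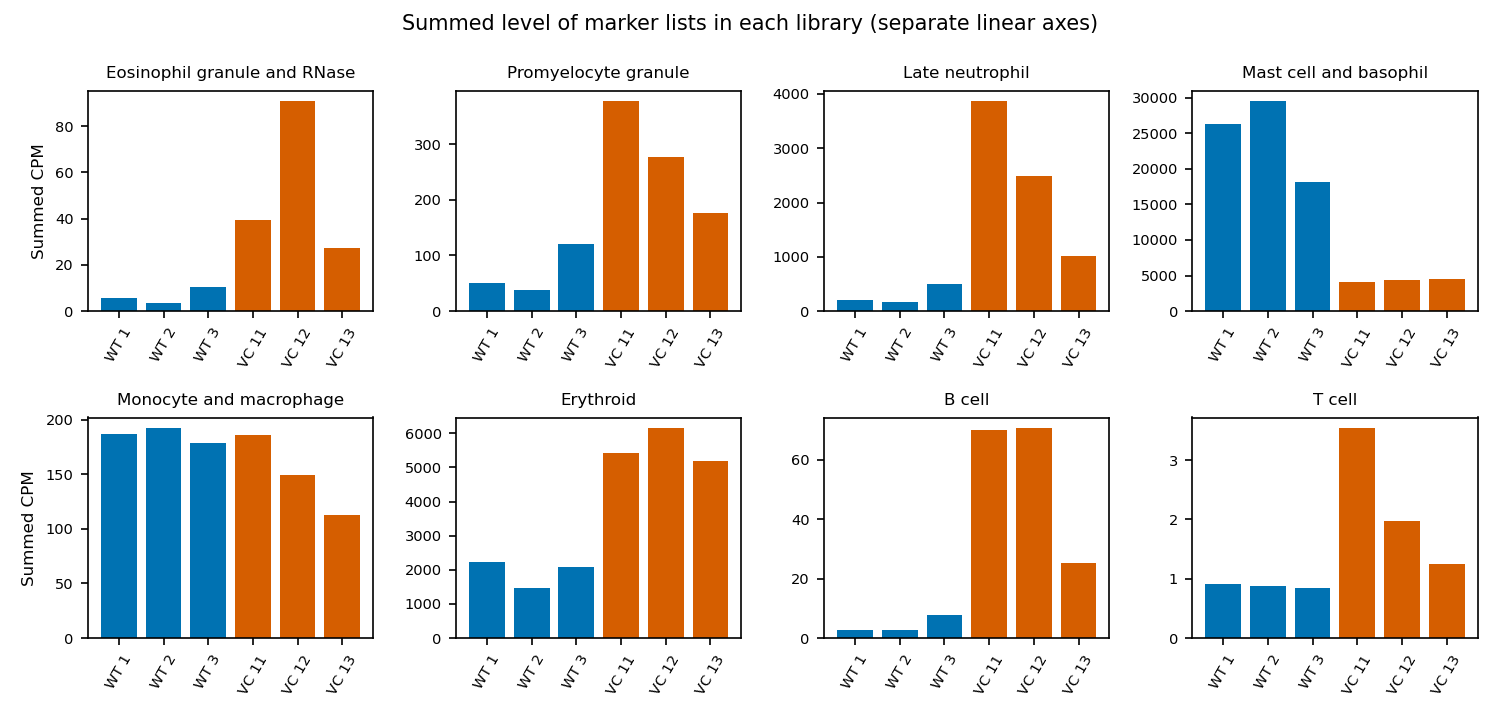
Summed CPM (y axes, linear and separate for each panel) of the 7 eosinophil granule and RNase genes and of 7 marker lists in each library, WT in blue and VC in orange. The eosinophil sum peaked at 90.9 CPM in VC replicate 12, the late neutrophil sum at 3870 CPM in replicate 11, and the mast cell and basophil sum was highest in WT replicate 2 at 29552 CPM.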

How the data were processed

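The data are 3 RNA-sequencing libraries each of WT and VC cells. The authors deposited whole-number counts per gene without normalization, and FPKM values that equal the count over gene length and a size-factor-scaled library size. The submitters' processing notes name Bowtie 0.12.0 and mm8, but 98.33% of the 54409 matched genes have GENCODE M21 (GRCm38) coordinates. The counting tool and strand setting are not given in the sources used here. The authors also deposited their own comparison, made with DESeq2, which was not used here. It holds p-values, log2 ratios of the groups and group means of normalized counts, a signal per gene, as deposited.

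In R 4.3.3, counts were filtered (edgeR 4.0.16, filterByExpr), normalized by TMM and tested by quasi-likelihood F-test at a Benjamini-Hochberg adjusted p of 0.05 over all 14169 genes tested. Adjusted p-values are edgeR's unless stated. CPM uses TMM-scaled library sizes. Gene lists were written by hand. All members, *Phf6*, the 2 highest and the 2 most significant genes of each list and the 2 genes most like each member were named by rule, and further list genes after their values were seen. A few genes that the rule or the lists hold are not reported here. Members and lists were chosen with earlier results of these data known. Identity between members was computed from GENCODE transcripts, in place of the protein comparison planned. Alternatives were DESeq2 1.42.0, RLE size factors, other count filters, limma 3.58.1 on log2(FPKM + 1), stricter thresholds and each library left out in turn. Without molecular identifiers reads may be copies of 1 molecule, so counting intervals and limits cover counting error only.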

Additional observations from a re-analysis of the deposited data

How the results depend on the processing

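The 5 genes called higher in VC cells stayed past the threshold under DESeq2, RLE size factors, no count filter, limma on log2(FPKM + 1), an adjusted p of 0.01, a minimum change of 2-fold and with any 1 library left out (5 to 5 genes higher, 0 lower). Requiring 10 counts or more in each library left only *Prg2* and *Ear2* to test, and these 2 were then higher, *Ear2* with a lower p (log2 fold change 0.96, adjusted p = 0.0475; 0.0543 to 0.226 under the other alternatives). On log2(FPKM + 1) the changes were smaller, 1.60 for *Epx* and 2.11 for *Prg3*. The surface and lipid genes higher in VC cells went from 2 to 1 with that filter and to 1 with a minimum of 2-fold (2 to 3 with a library left out). The regulators went from 5 higher to 2 at an adjusted p of 0.01, and from 4 lower to 2 at 2-fold. With 1 library left out, 3 to 6 were higher and 4 to 5 lower, the 3 without VC replicate 11. At 0.01, 2 of the 6 promyelocyte markers were higher. Of the 3 tested RNase A family genes outside the members, 2 were lower at 0.01 and 2 without VC replicate 11. Over all genes, 3047 higher and 3213 lower became 1690 and 2110 at 0.01 and 1410 and 1625 at 2-fold. By CPM in place of FPKM, 2 members changed place in WT cells and 4 in VC cells. No result changed direction under these alternatives. No paired analysis was possible because the groups share no replicate number. Counts under 10 in at least 2 WT libraries limit the precision of *Prg3*, *Epx*, *Ear1* and *Ear6*.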
